A study of Mus musculus with 12 samples.

Results

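Keratins are the intermediate filament proteins of epithelial cells, and the genes described here are the mouse keratin genes whose symbol is Krt followed by digits alone. They were found by symbol among 52636 gene rows: 50 symbols matched, and 1 of them, the pseudogene Krt74, is not protein-coding, which left 49 genes. Of these, 11 are keratins of the epidermis, 23 are keratins of hair or nail, 5 are keratins of simple (single-layered) epithelia, 4 are keratins of mucosa, and 6 were given no class. Counting could be tested for 39 of the 49, and 10 genes (Krt8, Krt12, Krt13, Krt20, Krt26, Krt40, Krt72, Krt76, Krt77 and Krt88) had too few counts.

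RNA was sequenced from the joints of paws of 12 mice, 1 mouse per library. The 4 naive mice had no arthritis and were given anti-gp120, an antibody used as the negative control (naive 1 to naive 4). K/BxN serum, which carries antibodies that inflame joints, was transferred into the other mice, whose tissue was taken on day 7. Of these, 4 were given anti-gp120 (control 1 to control 4) and 4 the anti-SIRPa antibody 6F2 (anti-SIRPa 1 to anti-SIRPa 4). The labels give no strain or age and do not say whether skin and nail were removed.

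A keratin filament is built from pairs, each of 1 acidic type I keratin and 1 basic type II keratin, and a cell type is recognised by the pair it makes. Dividing basal cells of the epidermis make Krt5 with Krt14, and as cells move outwards they switch to Krt1 and Krt2 with Krt10. The hair shaft, its inner root sheath and the nail plate have keratins of their own. A joint itself has little epithelium, so in a piece of paw these genes report mainly on attached skin, hair follicle and nail. In such bulk samples, fewer cells of a type and less RNA per cell cannot be told apart.

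The genes lie in 2 clusters (GRCm38). On chromosome 11, 25 members lie between positions 99232761 and 100269871, a span of 1037 kb that holds the type I genes. On chromosome 15, 24 members lie between positions 101347444 and 102032027, a span of 685 kb that holds the type II genes and Krt18. RefSeq promoters (GRCm38.p6), 250 bases before to 50 bases after the annotated start, matched 35 of the 49 by symbol. The 4 printed here belong to a keratin of the outer epidermal layers (Krt10), a hair shaft keratin (Krt31) and a pair on different chromosomes whose counts moved together (Krt42 and Krt90). Capitals mark the letters TATAAA, the core of a TATA box, on the gene's strand. All 4 genes lie on the minus strand, and the windows are chr11:99389315-99389614, chr11:100050502-100050801, chr11:100269902-100270201 and chr15:101562901-101563200.
Krt10 promoter: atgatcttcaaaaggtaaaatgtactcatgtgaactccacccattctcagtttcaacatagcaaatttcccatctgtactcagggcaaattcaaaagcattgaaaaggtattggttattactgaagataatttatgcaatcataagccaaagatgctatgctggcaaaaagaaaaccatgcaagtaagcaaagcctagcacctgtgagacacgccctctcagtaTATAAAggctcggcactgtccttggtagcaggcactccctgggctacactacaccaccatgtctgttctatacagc
Krt31 promoter: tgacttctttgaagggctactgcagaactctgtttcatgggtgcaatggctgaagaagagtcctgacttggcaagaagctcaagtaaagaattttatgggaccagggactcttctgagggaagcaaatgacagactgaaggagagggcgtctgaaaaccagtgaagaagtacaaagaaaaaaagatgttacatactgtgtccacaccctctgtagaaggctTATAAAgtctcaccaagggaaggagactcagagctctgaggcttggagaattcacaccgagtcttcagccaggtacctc
Krt42 promoter: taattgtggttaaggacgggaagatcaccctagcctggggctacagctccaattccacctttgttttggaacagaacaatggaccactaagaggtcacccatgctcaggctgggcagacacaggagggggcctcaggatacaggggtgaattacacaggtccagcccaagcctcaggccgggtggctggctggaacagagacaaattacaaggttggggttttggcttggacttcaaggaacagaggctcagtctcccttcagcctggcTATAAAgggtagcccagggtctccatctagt
Krt90 promoter: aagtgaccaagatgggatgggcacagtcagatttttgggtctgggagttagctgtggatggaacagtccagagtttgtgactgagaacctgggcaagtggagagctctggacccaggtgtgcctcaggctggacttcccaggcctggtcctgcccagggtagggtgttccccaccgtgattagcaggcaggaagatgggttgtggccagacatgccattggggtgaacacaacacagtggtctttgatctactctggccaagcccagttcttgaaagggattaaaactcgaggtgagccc

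The TATAAA of Krt10 began 26 bases and that of Krt31 29 bases before the start. In Krt42 the letters began at base 20 after the RefSeq start, and Krt90 had none in its window. In the GENCODE annotation Krt42 starts at 100269871, downstream of the printed window, so the position of its TATAAA depends on the annotation. Searched on both strands, TATAAA occurred in 18 of 35 keratin promoters, against 13.6% of 32851 promoters of all genes. With its first base 35 to 20 bases before the start on the gene's strand, a window set after positions had been seen, it occurred in 12 of 35 keratin promoters and in 1.84% of all promoters. The hair or nail keratins had it in 8 of 17 and the epidermal keratins in 1 of 7, Krt10. A match is a description of the letters, not evidence of a used site, and neighbouring keratin genes are copies of each other and not independent.

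Keratin counts differed between libraries by a factor of 1529. All 49 genes together took 1.48%, 0.536%, 0.388% and 0.00142% of counts in naive 1 to 4. They took 0.491%, 0.218%, 0.0843% and 0.143% in control 1 to 4, and 0.0372%, 0.00174%, 0.0490% and 2.17% in anti-SIRPa 1 to 4. The groups overlapped from end to end, since the highest and the lowest anti-SIRPa library enclosed 11 of the 12 values and naive 4 was the lowest of all. The order did not follow total counts, which ran from 6893969 in control 2 to 17597920 in anti-SIRPa 1, so that 3 counts, the upper limit that a count of 0 allows, correspond to 0.170 to 0.435 CPM (counts scaled to library size). Naive 4 and anti-SIRPa 2, called the skin-poor libraries below, held 221 and 283 keratin counts out of 15599271 and 16250583. Their muscle genes summed to 317600 and 240200 CPM, the highest of all 12 libraries, against 122200 to 239500 in the other libraries, and genes of the synovial lining to 7749 and 10960 CPM, against 6051 to 10560.

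**Figure D1:**
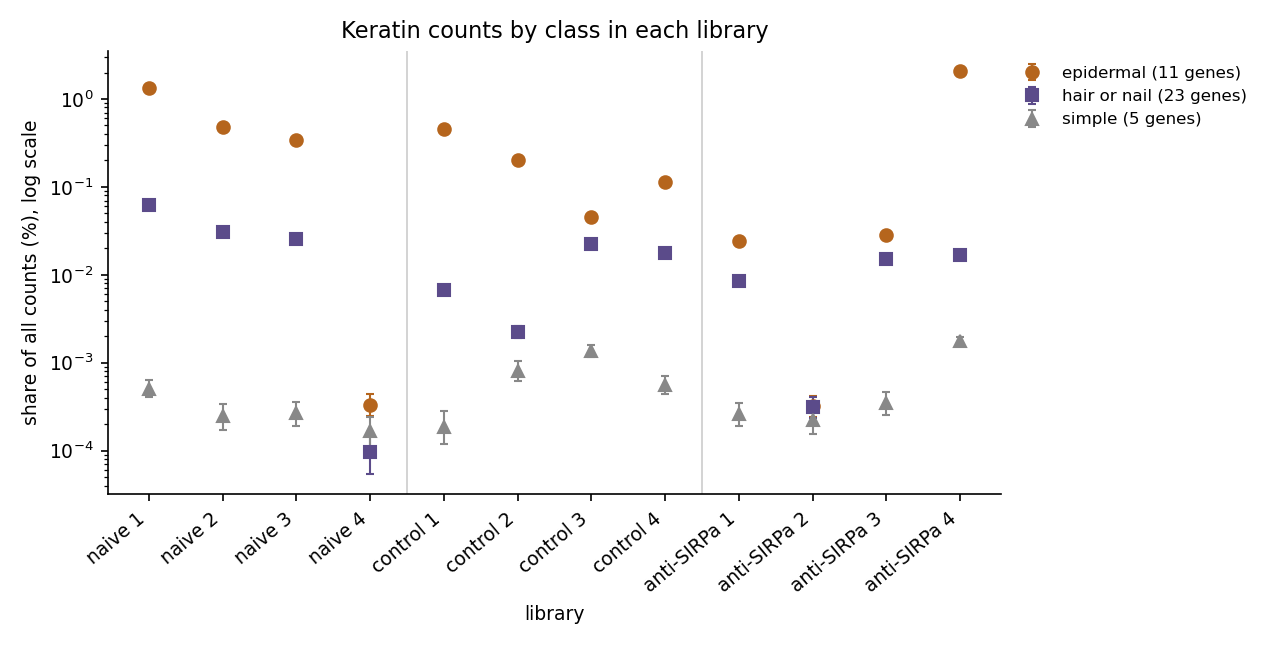
Share of all counts in each library (percent, log scale) taken by the 11 epidermal, 23 hair or nail and 5 simple keratins. Bars are exact (Clopper-Pearson) 95% intervals that cover counting error only. Epidermal shares run from 0.00032% in anti-SIRPa 2 to 2.08% in anti-SIRPa 4, and in anti-SIRPa 2 the classes lie together.

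Epidermal keratins made 53.7% to 95.95% of these counts in 10 of the 12 libraries, and 23.5% and 18.4% in naive 4 and anti-SIRPa 2. Krt14, the type I basal keratin, stood at 718, 418, 345 and 0.229 CPM in naive 1 to 4, at 476, 140, 59.2 and 158 in control 1 to 4, and at 24.5, 0.642, 32.8 and 851 in anti-SIRPa 1 to 4. Krt5, its type II partner, stood at 669, 419, 288 and 0.382, at 367, 73.1, 46.5 and 130, and at 22.5, 0.193, 30.4 and 737 CPM, in the same order. In both genes anti-SIRPa 4 was the highest library and the skin-poor libraries were the lowest. Over the 10 libraries with at least 10 counts of both, the log2 level of each gene had an SD of 1.87 (Krt5) and 1.84 (Krt14), while the log2 ratio of Krt5 to Krt14 was -0.27 ± 0.26 (SD). By group the log2 ratio was -0.12 ± 0.13 in 3 naive libraries, -0.49 ± 0.30 in 4 control libraries and -0.15 ± 0.05 in 3 anti-SIRPa libraries, and control 2 was the lowest at -0.94. Of the 50-base words in their transcripts, 13.9% (Krt14) and 8.5% (Krt5) also occur in other genes, mostly Krt16 and Krt6a, so a part of their reads is uncertain.

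Krt15, a type I keratin of basal cells and of the hair follicle bulge, had 108, 161, 88.5 and 0 CPM in the naive libraries, 196, 32.2, 20.04 and 65.3 in the control libraries and 7.33, 0.0642, 6.84 and 73.6 in the anti-SIRPa libraries. It was highest in control 1, not in anti-SIRPa 4, where the ratio of Krt15 to Krt14 was lowest (0.0865, against 0.151 to 0.413 in the other 9 libraries).

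The keratins of the outer layers were the most abundant. Per length of exon, Krt10 led all 49 genes with a mean of 603 CPM per kb over the 12 libraries, followed by Krt2 (310), Krt1 (271) and Krt14 (153). Krt10 stood at 4238, 1625, 1078 and 2.75 CPM in naive 1 to 4, at 1196, 401, 122 and 267 in control 1 to 4, and at 85.1, 2.06, 95.7 and 6188 in anti-SIRPa 1 to 4. Its type II partner Krt1 stood at 4723, 929, 904 and 0, at 1040, 570, 71.4 and 137, and at 76.4, 0, 68.5 and 5833 CPM. Krt2, a type II keratin of the uppermost living layers, stood at 2034, 1143, 746 and 0.229, at 1279, 353, 91.6 and 305, and at 28.9, 0.129, 41.8 and 3707 CPM. In each of these genes anti-SIRPa 4 exceeded the other anti-SIRPa libraries, and 3 of 4 naive libraries exceeded control 2, 3 and 4. The log2 ratio of Krt1 to Krt10 was -0.31 ± 0.46 (SD, 10 libraries) and that of Krt2 to Krt10 -0.59 ± 0.56. In the skin-poor libraries Krt10 kept 36 and 32 counts while Krt1 had 0 in both. Krt10 overlaps an antisense gene, Gm11940, and the strand setting of the counting is not known. Krt78, a type II keratin of the epidermis, ran from 0 to 86.8 CPM and followed Krt10 (SD of the log2 ratio 0.56), and Krt77, which is made in sweat gland ducts, had at most 24 counts, in control 2.

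Krt9 did not follow the rest of the epidermis. It is the type I keratin of the thick skin of footpads. Its levels were 569, 24.9, 54.6 and 0.153 CPM in naive 1 to 4, 206, 230, 0.151 and 0.504 in control 1 to 4, and 0, 0, 0.288 and 684 in anti-SIRPa 1 to 4. Naive 1 to 3, control 1, control 2 and anti-SIRPa 4 were therefore high, and the other 6 libraries had at most 7 counts. Among those 6 were control 3 and 4 and anti-SIRPa 1 and 3, in which Krt10 had 1329 to 3700 counts. Even among the 6 high libraries, the ratio of Krt9 to Krt10 ran from 0.0153 in naive 2 to 0.573 in control 2. Krt16 and Krt17, type I keratins that epidermis makes on injury and that footpad, nail bed and follicle also make, were lower. Krt17 ran from 0.0765 to 66.0 CPM (naive 1) and Krt16 from 0 to 37.1 CPM (anti-SIRPa 4). Krt17 was nearest to Krt5 (SD of the log2 ratio 0.51). Of the 50-base words of Krt16, 37.6% occur in other genes, so its counts are uncertain.

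**Figure D2:**
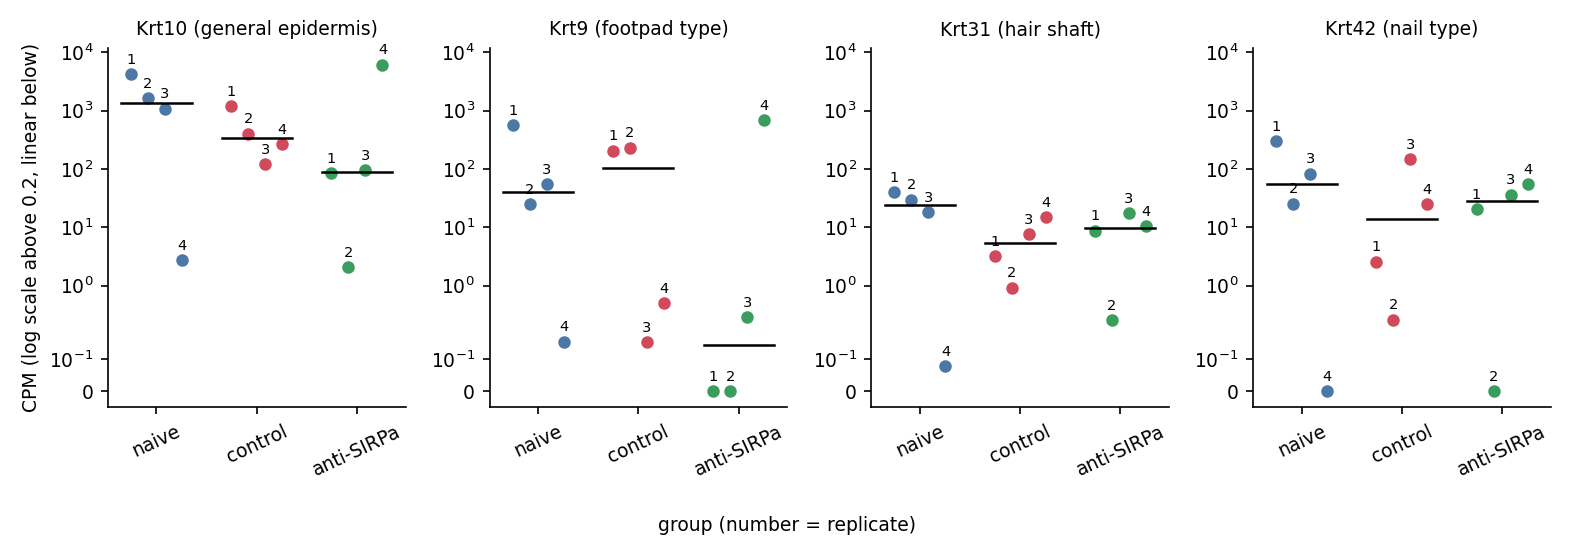
CPM of Krt10 (most of the epidermis), Krt9 (footpad), Krt31 (hair shaft) and Krt42 (nail) by group, with 1 point per library marked with its replicate number and a line at the group median. The axis is logarithmic above 0.2 CPM and linear below. Control 1 and 2 are high in Krt9 and low in Krt42, and control 3 and 4 are the reverse.

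The hair shaft or nail keratins had another order of libraries. Krt31, a type I keratin of the hair shaft cortex, stood at 40.3, 29.99, 18.2 and 0.0765 CPM in naive 1 to 4, at 3.22, 0.917, 7.69 and 14.9 in control 1 to 4, and at 8.73, 0.257, 17.4 and 10.45 in anti-SIRPa 1 to 4. Anti-SIRPa 4, the highest library in epidermal keratins, was thus below naive 1 to 3, control 4 and anti-SIRPa 3 in Krt31. The ratio of Krt31 to Krt14 ran from 0.00676 in control 1 to 0.531 in anti-SIRPa 3. Krt87, a type II hair keratin, stood at 54.2, 44.8, 28.8 and 0.0765, at 3.22, 0.786, 9.42 and 24.4, and at 14.1, 0.0642, 21.8 and 16.7 CPM. Krt84, the type II keratin Hb4, stood at 34.9, 35.03, 32.4 and 0, at 7.01, 0.917, 8.29 and 18.3, and at 8.91, 0, 19.8 and 12.9 CPM. Both kept the order of Krt31 closely, with SDs of the log2 ratio to Krt31 of 0.24 (Krt87) and 0.41 (Krt84) over 9 libraries. The 66 pairs of hair shaft or nail keratins with enough counts had a median SD of 0.57, against 1.90 for the 36 pairs of a hair shaft or nail with a basal keratin and 2.29 for the 48 pairs with a suprabasal keratin. Shared reads can tie some of these genes together: 28.1% of the words of Krt31, 33.1% of Krt34, 36.9% of Krt87, 37.7% of Krt81 and 43.3% of Krt86 occur in other genes. Krt84 and Krt36 had 0.0% and 0.4%, and their log2 ratio had an SD of 0.33 over 9 libraries.

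Krt42 stood apart within this class. It is a type I keratin close to Krt17 that is known from the nail. Its levels were 299, 25.4, 83.5 and 0 CPM in naive 1 to 4, 2.56, 0.262, 149 and 25.1 in control 1 to 4, and 20.3, 0, 36.2 and 55.2 in anti-SIRPa 1 to 4. Control 3 was second only to naive 1, although Krt31 and Krt10 were each higher in naive 1 to 3, control 4 and anti-SIRPa 4 than in control 3. The ratio of Krt42 to Krt31 ran from 0.795 in control 1 to 19.3 in control 3. Its nearest neighbour was Krt90, a type II gene that had been given no class, and the pairing was noticed after the values had been seen. Krt90 stood at 255, 22.98, 69.0 and 0, at 0.743, 0, 98.6 and 26, and at 20.2, 0, 29.7 and 42.1 CPM. The log2 ratio of Krt90 to Krt42 was -0.24 ± 0.21 (SD) over the 8 libraries with at least 10 counts of both, while the log2 levels had SDs of 1.26 and 1.38. The next nearest gene to Krt42, Krt86, had an SD of 1.40. The 2 genes lie on different chromosomes, 0.2% of the words of Krt42 and 0.0% of those of Krt90 occur in other genes, so few of their reads can be shared. Krt90 overlaps only a microRNA gene on the opposite strand.

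The inner root sheath, the inner lining that moulds the growing hair, was represented by low counts. Krt71 stood at 14.0, 15.3, 7.08 and 0 CPM in naive 1 to 4, at 13.0, 0.655, 3.01 and 8.93 in control 1 to 4, and at 1.41, 1.16, 0.792 and 4.97 in anti-SIRPa 1 to 4. Krt25, a type I partner, stood at 6.13, 7.99, 3.44 and 0.306, at 4.21, 0, 2.56 and 4.39, and at 0.410, 0.0642, 0.216 and 2.82 CPM. Krt73 stood at 3.34, 3.57, 1.33 and 0, at 2.31, 0.524, 0.528 and 1.51, and at 0.176, 0.257, 0 and 0.621 CPM. In all 3 genes naive 1 to 3 were above every anti-SIRPa library, while naive 4 was at or near 0. Krt75, a keratin of the companion layer beside the sheath, was highest in control 1 (10.97 CPM) and ran from 0.153 to 4.91 in the other libraries. In control 1 the ratio of Krt71 to Krt31 was 4.05, its highest value, against 0.0455 in anti-SIRPa 3. The hair shaft or nail keratins Krt35 and Krt84 also had their highest ratios to Krt31 in control 1 (2.385 and 2.179). High ratios to Krt31 in this library were thus not particular to the inner root sheath. The 12 pairs of an inner root sheath with a basal keratin had a median SD of the log2 ratio of 1.15. It was 1.28 for the 46 pairs with a hair shaft or nail keratin and 1.69 for the 16 with a suprabasal keratin. The inner root sheath keratins thus stood no nearer to the hair shaft than to the basal keratins.

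**Figure D3:**
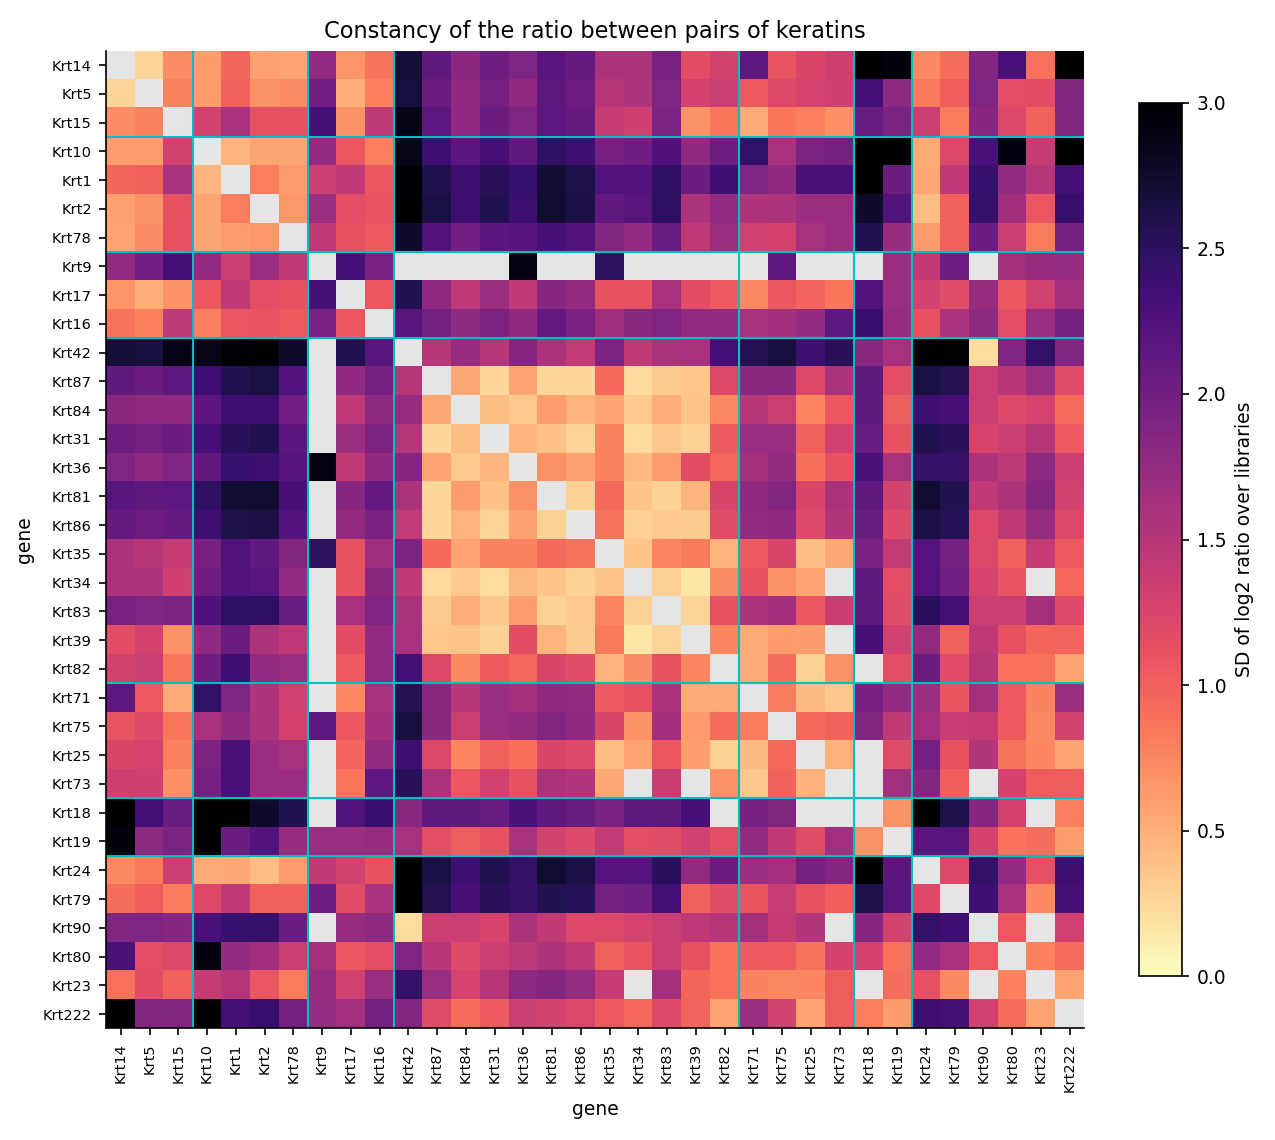
SD of the log2 ratio of counts over libraries for pairs of keratins with at least 10 counts of both in at least 6 libraries. Lines divide basal, suprabasal, palmoplantar or stress, hair shaft or nail, inner root sheath, simple and unassigned keratins, and grey cells have too few libraries. Light blocks are the basal and suprabasal, the hair shaft and the inner root sheath keratins. Krt9 is darker with the other epidermal keratins (1.35 to 2.34), and Krt42 is light only with Krt90 (0.21).

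Keratins of simple epithelia were scarce. Krt18, a type I keratin of simple epithelia, had 1.15, 0.210, 0.701 and 0.306 CPM in naive 1 to 4, 0.578, 1.57, 11.98 and 2.31 in control 1 to 4, and 0.703, 0.835, 1.37 and 5.42 in anti-SIRPa 1 to 4. Control 3 with 159 counts stood above all other libraries, yet Krt8, its usual partner, had 3 counts there and 14 in anti-SIRPa 4, its highest library. Krt19 ran from 0.528 to 5.37 CPM and Krt7 from 0.0754 to 3.73 CPM, both highest in anti-SIRPa 4. Krt8, Krt18 and Krt20 also mark Merkel cells, but Krt20 had at most 7 counts. The mucosal keratins Krt12, Krt13 and Krt76 had at most 12 counts each, and Krt4 reached 1.964 CPM. Krt12, Krt13, Krt20, Krt76, Krt77 and Krt88 were all highest in control 2, the shallowest library, where genes of smell and taste receptors summed to 529 CPM, against 227 in control 4, 29.4 in control 3 and 10.1 to 16.6 in the other libraries. Whether that background has a part in these few counts was not tested.

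Some unassigned keratins went with the epidermis and some did not. Krt24 ran from 0 to 399 CPM and was nearest to Krt2 (SD of the log2 ratio 0.41). Krt79, a keratin of the upper follicle and sebaceous duct, was highest in control 1 (120 CPM), followed by naive 2 (106) and anti-SIRPa 4 (103), and ran from 0.153 to 86.2 in the other libraries. The list of other sebaceous and sweat gland genes was also highest in control 1 (318 CPM). Krt80 stood at 8.26 CPM in naive 4 and 7.77 in anti-SIRPa 2, close to 7.71 in anti-SIRPa 3, and at up to 55.7 in anti-SIRPa 4. In naive 4 and anti-SIRPa 2 it made 48.9% and 42.8% of all keratin counts, where Krt10 or Krt1 or Krt2 or Krt42 led elsewhere. Krt222, a keratin-like gene, was the steadiest at 0.603 to 2.09 CPM.

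**Figure D4:**
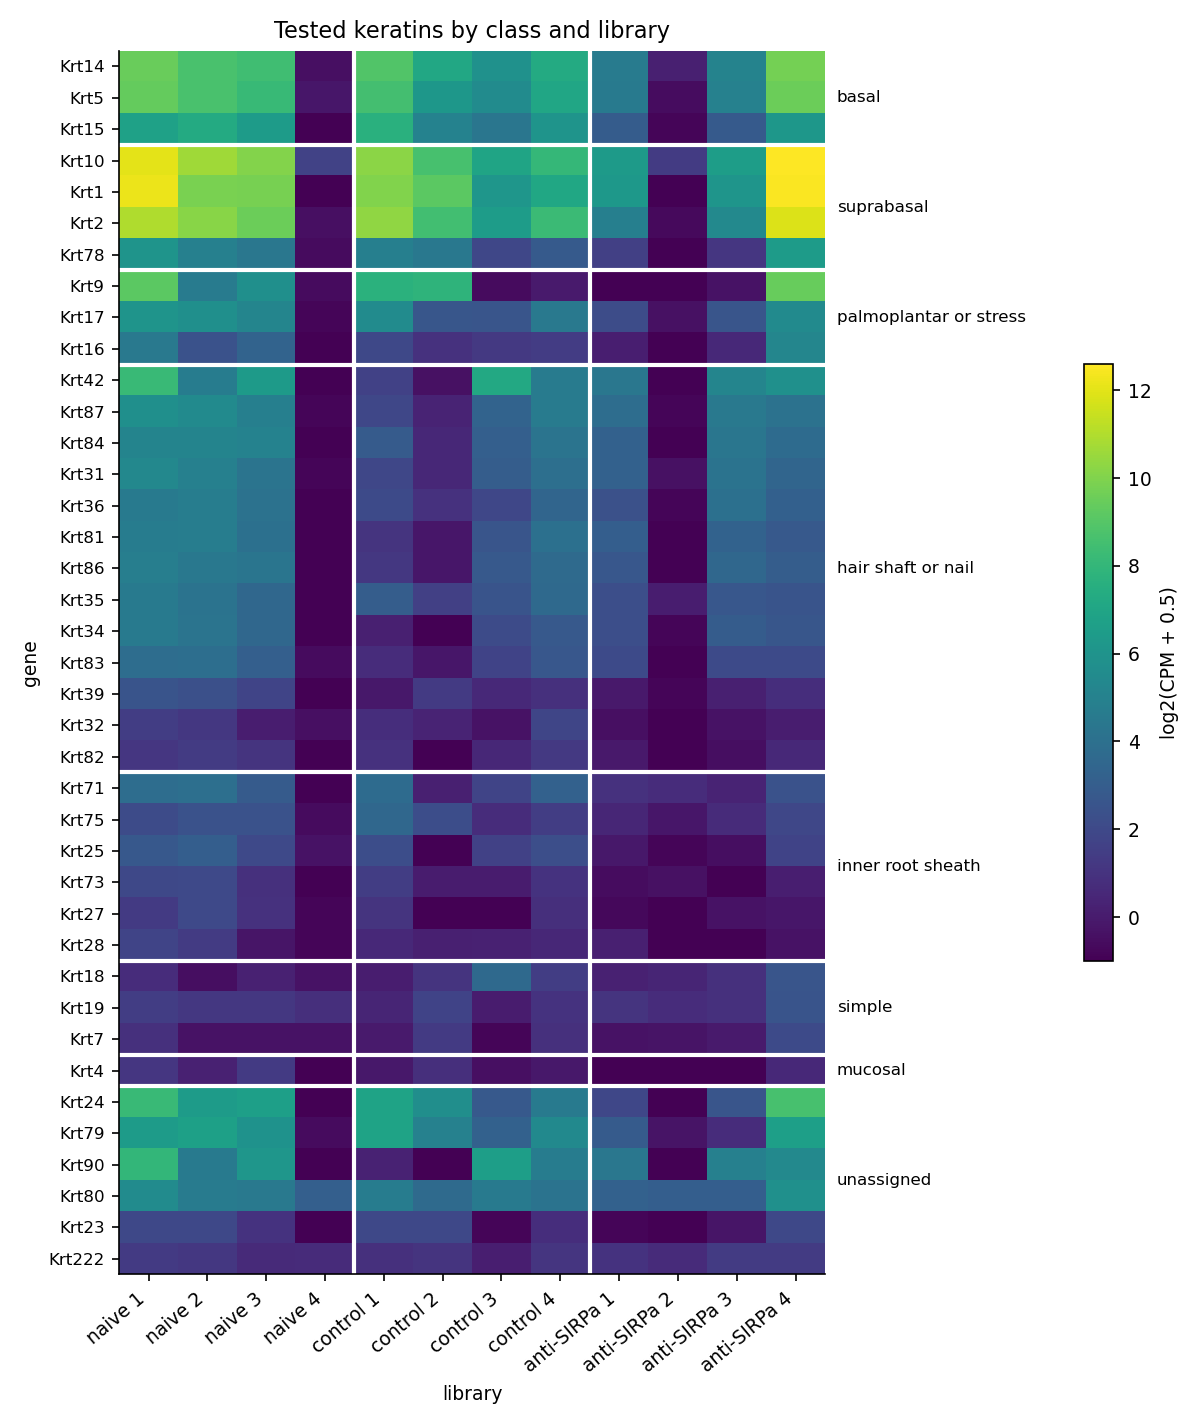
log2(CPM + 0.5) of the 39 tested keratins (rows, by class) in the 12 libraries (columns, white lines between groups). The dark columns are naive 4 and anti-SIRPa 2. Krt9 is bright in 6 libraries only, and Krt42 and Krt90 share a pattern that differs from the rows around them.

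The make-up of the keratin counts varied as well as their amount. Hair or nail keratins made 4.20%, 5.75% and 6.56% of keratin counts in naive 1 to 3. In control 1 to 4 they made 1.36%, 1.04%, 26.9% and 12.4%, and in anti-SIRPa 1, 3 and 4 22.97%, 31.2% and 0.779%. The first 3 naive libraries were thus alike, and each arthritic group held libraries on both sides of them. In naive 4 and anti-SIRPa 2 the part was 6.79% and 18.0%, out of only 221 and 283 keratin counts. The keratins were also set beside other genes of skin, hair and nail. A list of 30 epidermal genes other than keratins summed to 6813, 3441, 1874 and 108 CPM in the naive, 3114, 1126, 503 and 928 in the control and 316, 124, 354 and 8377 in the anti-SIRPa libraries. The list of 70 other hair and nail genes, mostly keratin-associated proteins, summed to 314, 349, 208 and 22.0, to 89.8, 42.6, 66.0 and 141, and to 66.1, 21.01, 83.9 and 102 CPM. The ratio of epidermal keratins to the first list was 0.0368 in naive 4 and 0.0269 in anti-SIRPa 2, against 0.798 to 2.18 in the other libraries. Most of the list sum in naive 4 and anti-SIRPa 2 came from Itgb4 (46.72 and 50.04 CPM) and Sbsn (34.03 and 37.71 CPM). The list genes Flg, Hrnr and Dsg3 had 0 CPM in both. The low ratios therefore do not show that keratins were reduced more than other epidermal genes. The ratio of hair or nail keratins to the second list was 3.20 in control 3, against 0.782, 0.480 and 1.23 in control 1, 2 and 4. Control 3 was thus the highest control library in hair or nail keratins (211 CPM) but below control 1 and 4 in the other hair and nail genes. Its rank rested on Krt42, which made 149 of these 211 CPM. Without Krt42, the hair shaft or nail keratins summed to 33.3, 10.9, 54.6 and 127 CPM in control 1 to 4.

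Between mice of the same group, keratins varied more than nearly all other genes. The within-group SD of log2(CPM + 0.5) had a median of 0.32 over the 16674 tested genes, 3.59 over 10 tested epidermal keratins and 1.72 over 19 tested hair or nail keratins. Krt1 had the largest SD of all tested genes (4.79), Krt9 the next (4.63) and Krt2 the third (4.38). Of the 39 tested members, 34 lay above the 95th percentile of all genes. Krt222 (0.39) was the lowest member.

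Arthritis was compared with the naive state between mice given the same control antibody. No keratin passed the threshold, and the fold changes of most were negative but smaller than the spread between mice. edgeR's quasi-likelihood test with Benjamini-Hochberg adjustment called 0 of 39 members at an adjusted p under 0.05, against 10.3% of all tested genes. At an unadjusted p under 0.05 it was 1 member, against 28.2% of all genes, and DESeq2 called 1, Krt18. The groups of all 39 members overlapped; groups without overlap were found in 12.5% of all genes. The log2 fold change was negative in 10 of 10 tested epidermal keratins (median -0.95, from -2.02 to -0.19) and in 17 of 19 tested hair or nail keratins (median -1.21, from -2.23 to 0.42), beside a median of 0.03 over all genes. Krt10 changed by -1.81 ± 2.08 (log2, SE; edgeR adjusted p = 0.614), Krt31 by -1.70 ± 1.30 (edgeR adjusted p = 0.427) and Krt42 by -1.20 ± 1.87 (edgeR adjusted p = 0.718), none of them past the threshold. Single libraries moved these values: the epidermal median was -0.37 without naive 1 and -1.89 without control 1, and Krt10 stood at -0.87 and -2.73. Krt42 stood at 0.28 without naive 1 and at -3.44 without control 3. The smallest p belonged to Krt18, at 2.77 ± 0.99 (edgeR adjusted p = 0.0934), from 0.593 ± 0.430 to 4.11 ± 5.30 CPM (SD, n = 4 per group). Without control 3 its fold change was 1.26 (edgeR adjusted p = 0.382). Without control 1 it was 3.12 and passed (edgeR adjusted p = 0.0358). Muscle genes, of which 2 of 12 were called lower and 0 higher, moved in the same comparison, and their part in the keratin values was not tested.

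The anti-SIRPa antibody was compared with the control antibody in arthritic mice. Again no keratin passed. The 2 classes had medians of opposite sign, but within hair or nail only the inner root sheath median was negative. edgeR called 0 of 39 members, against 3.29% of all genes, and 1 member, Krt32, had an unadjusted p under 0.05, against 24.4%. Krt28 was the 1 member whose groups did not overlap (0.655 to 0.990 against 0 to 0.645 CPM, 5 to 13 against 0 to 11 counts), against 10% of all genes. The median was 0.63 in epidermal keratins, with 8 of 10 positive, and -0.76 in hair or nail keratins, with 12 of 19 negative, beside -0.03 over all genes. The epidermal sign rested on anti-SIRPa 4: without it the median was -3.29, with 10 of 10 negative. Leaving out any of control 1, 3 and 4 and anti-SIRPa 1, 2 and 3 moved it to between 0.30 and 1.22. The hair or nail median was -0.46 without anti-SIRPa 2 and -1.35 without anti-SIRPa 4. Krt10 changed by 1.68 ± 2.07 (edgeR adjusted p = 0.664), by 2.61 without control 1 and by -3.0 without anti-SIRPa 4 (edgeR adjusted p = 0.341). Krt42 changed by -0.67 ± 1.86 (edgeR adjusted p = 0.862), and by 1.57 without control 3 (edgeR adjusted p = 0.72); without any of control 1 and 2 and anti-SIRPa 2 and 4 it was -1.21 to -0.25. All 6 tested inner root sheath keratins had negative values (median -1.72, from -2.15 to -1.62). The 13 tested hair shaft or nail keratins had a median of 0.07, with 7 positive and 6 negative. The smallest p was that of Krt32, a type I hair cuticle keratin, at -2.28 ± 0.91 (edgeR adjusted p = 0.146), and at -1.45 without control 4. Krt32 had 1.24, 0.786, 0.301 and 3.10 CPM in control 1 to 4 and 0.235, 0, 0.288 and 0.565 in anti-SIRPa 1 to 4, so that the groups overlapped at control 3.

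Arthritic mice given anti-SIRPa were also compared with naive mice. This comparison shares its mice with the other comparisons. edgeR called 0 of 39 members and 0.00% of all genes, and the unadjusted count was 5 members, against 4.05% of all genes. They were Krt27, Krt28, Krt32, Krt39 and Krt73, all lower and all of hair or nail, 3 of them among the 6 tested inner root sheath keratins. No member had groups that did not overlap, against 4.89% of all genes, since naive 4 was below the highest anti-SIRPa library in all 5. Krt73 changed by -2.89 ± 1.04, from 2.06 ± 1.70 to 0.264 ± 0.262 CPM (SD, n = 4 per group), and Krt27 by -3.05 ± 1.21, from 1.73 ± 1.39 to 0.2002 ± 0.176 CPM, with an edgeR adjusted p of 0.9999 for both. The median over 19 hair or nail keratins was -1.69, with 19 of 19 negative. The median over 10 epidermal keratins was -0.24, with 8 of 10 negative, beside -0.01 over all genes. It was -4.32 without anti-SIRPa 4, 0.51 without naive 1, 0.15 to 0.18 without any of the other anti-SIRPa libraries, -0.40 without naive 3 and -0.64 without naive 4.

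**Figure D5:**
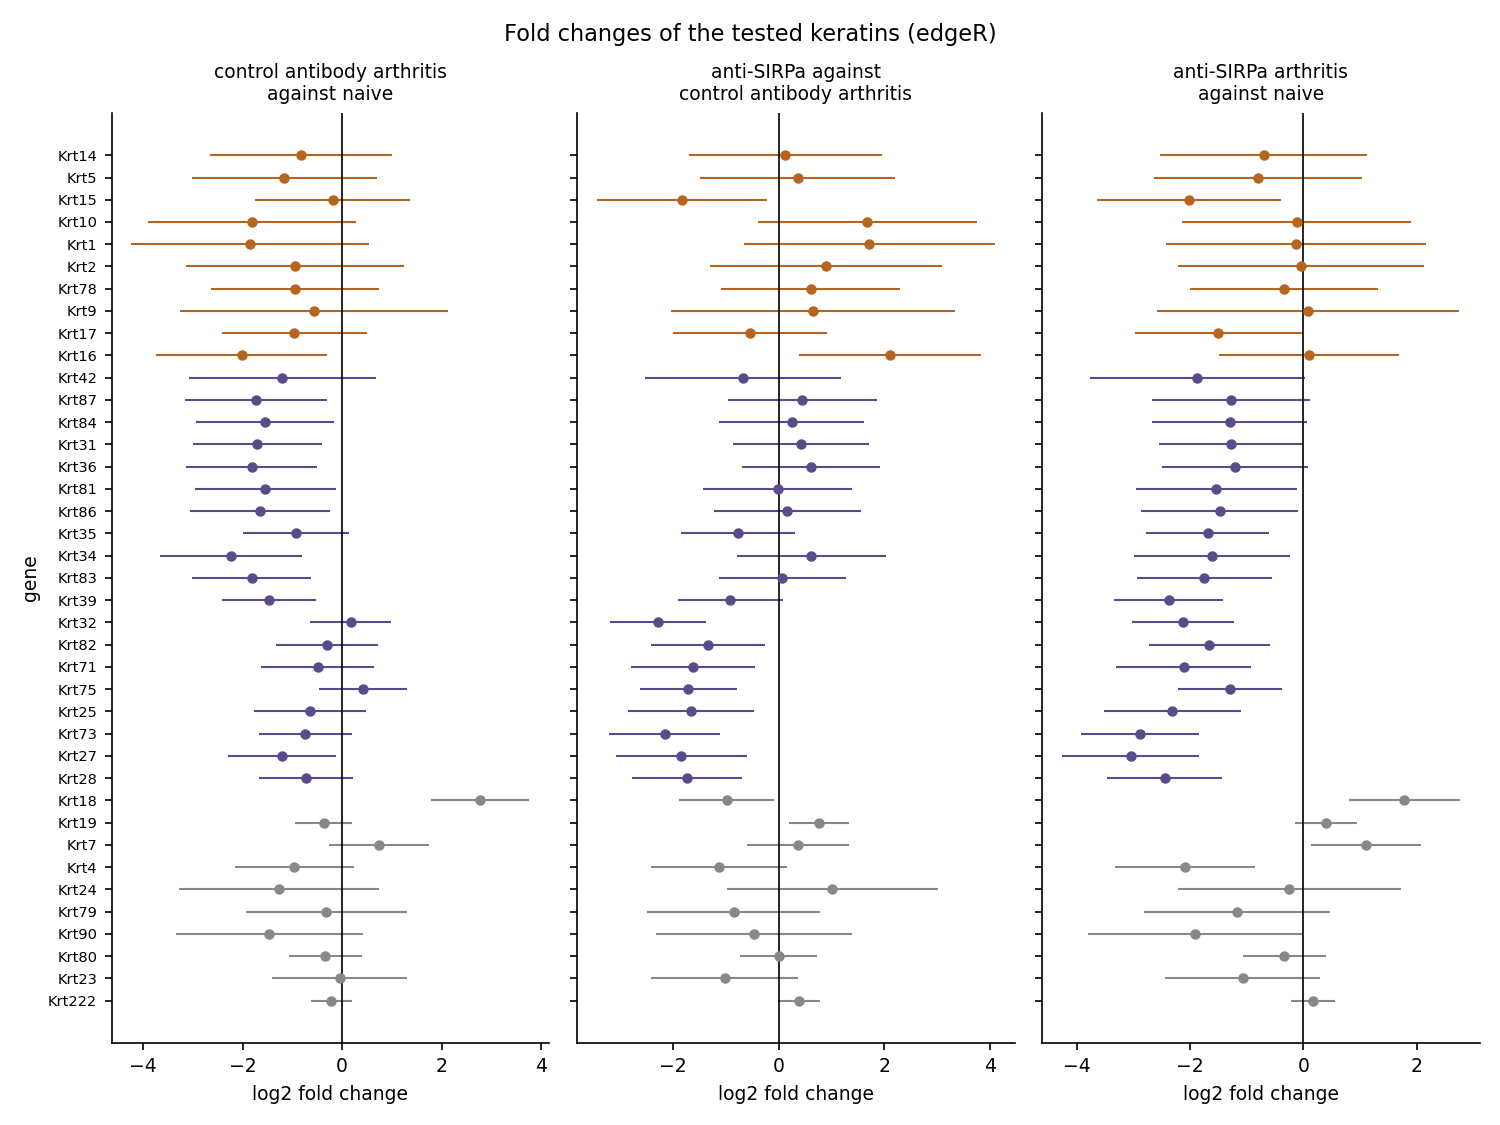
log2 fold changes of the 39 tested keratins in the 3 comparisons (edgeR; bars are 1 SE on each side). Brown marks epidermal, violet hair or nail and grey other keratins. Bars of epidermal genes span about the widest ranges, up to 2.69 for Krt9, and no gene passed the threshold.

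Other genes of skin were tested in the same fit. Of 30 epidermal genes other than keratins, 0 were called in any comparison, with medians of -1.16, 0.68 and -0.46 in the order above. Of 70 other hair and nail genes, 30 were tested and 0 were called, with medians of -1.70, 0.07 and -1.61. The epidermal stress list (10 tested, 0 called) had medians of -1.45, 1.15 and 0.00, and the sebaceous and sweat gland list (9 tested, 0 called) of -0.25, -1.17 and -1.40. Melanocyte genes summed to at most 3.54 CPM. Of the 4 Merkel cell genes 1, Piezo2, could be tested and was not called. The list summed to 11.9 to 34.5 CPM, most of it Piezo2 (10.9 to 31.8 CPM). Atoh1, Sox2 and Isl1 reached at most 1.05, 1.18 and 0.395 CPM. Bone and cartilage genes had 2 of 8 called higher and 1 lower in arthritis against naive, and 1 higher and 0 lower with anti-SIRPa against the control antibody. Of 5 synovial lining genes, 1 was called higher and 2 lower in the first of these comparisons and 2 higher and 1 lower in the second.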

How the data were processed

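Whole-number read counts per gene were deposited by the authors with no normalization, per the file headers and the values. The build is GRCm38, per the submitters' processing notes; the aligner, the counting program and its strand setting are not stated in the sources used. The library kit is stranded, per the labels' protocols. All 12 sample files held the values of the series table. Groups come from the labels. The labels give 1 animal per library, and no molecular identifiers are named, so intervals cover counting error only.

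Gene symbols, types and exon lengths came from GENCODE M21 (52489 of 52636 rows had a symbol). The members and gene lists were chosen with earlier results of these data known. Named members were the 4 with the highest mean CPM of each class, those past the threshold and the one with the smallest p in each comparison; other names were chosen after their values were seen. edgeR 4.0.16 (filterByExpr, TMM, robust quasi-likelihood fit of 12 libraries in 3 groups, 16674 genes tested, Benjamini-Hochberg adjustment) was the test; SE is the fold change divided by the square root of F. CPM is TMM-scaled, and levels per length are CPM per kb of merged exons. Ratios of 2 genes used libraries with at least 10 counts of both. Shared words are 50-base stretches of GENCODE transcripts found in another gene. The fit was tested on data simulated with the same spread for every gene, smaller than that of most keratins. That check cannot show how well changes of keratins would be found. Alternatives were other size factors and filters, DESeq2 1.42.0, limma-voom (limma 3.58.1), subsets of libraries, a replicate block and a skin covariate, the mean level of epidermal genes other than keratins.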

Additional observations from a re-analysis of the deposited data

Results flagged for a closer look

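Of 33 groups of 4 libraries examined (3 shares and the Krt42 and Krt90 pair, and 7 genes, in 3 groups each), 10 held a library separated from the other 3 by a gap over Dixon's 95% critical value. Chance flags about 1 in 20 groups only where values are normally distributed. The CPM and shares were not log-transformed here and spread widely, so the rate of chance flags is not known. All 10 flagged libraries were the highest of their group, and the measures are not independent. In the anti-SIRPa group it was anti-SIRPa 4, with 2.17% of counts in all keratins, 2.08% in epidermal keratins, 6188 CPM of Krt10, 851 of Krt14, 684 of Krt9, 4.97 of Krt71 and 5.42 of Krt18. In the naive group it was naive 1 with 569 CPM of Krt9. In the control group it was control 3, with 149 CPM of Krt42 and 11.98 CPM of Krt18.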

How the results depend on the processing

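Over 25 alternatives per comparison, edgeR or the other tools called 0 keratins in anti-SIRPa against control antibody and in anti-SIRPa against naive. In arthritis against naive the count was 1 (Krt18) with DESeq2, with the skin covariate and without control 1, and 0 otherwise; over the 12 fits without 1 library it ran from 0 to 1. Krt18 stood at 2.76 with DESeq2 (adjusted p = 0.0146) and 3.12 with the skin covariate (edgeR adjusted p = 0.0486). With limma-voom the epidermal median for anti-SIRPa against control antibody was -2.54 and Krt10 was -1.84. Without 1 library each, that median ran from -3.29 to 1.22, the epidermal median for anti-SIRPa against naive from -4.32 to 0.51, Krt10 in anti-SIRPa against control antibody from -3.0 to 2.61, and Krt42 from -1.21 to 1.57 there and from -3.44 to 0.28 in arthritis against naive. With the skin covariate, Krt10 was 0.20 and Krt42 0.70 in arthritis against naive. Of the tested epidermal keratins only Krt16 was then negative there (-0.41), and the others ran from 0.05 (Krt17) to 3.06 (Krt9). In anti-SIRPa against control antibody only Krt1 (0.29), Krt10 (0.21) and Krt16 (0.67) were positive. The other tested epidermal keratins ran from -3.40 (Krt9) to -0.39 (Krt5). Most epidermal signs of the main fit in these comparisons thus did not hold with this covariate. The fold between the highest and lowest keratin share was 1125 by effective library size and 1339 without muscle genes and keratins. The cause of these shifts was not tested. Without naive 4 and anti-SIRPa 2, or without control 2 and control 4 (chosen after seeing the data), 0 keratins were called.

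With the replicate number as a block, 0 keratins were called, and 735, 78 and 0 genes in all. The epidermal medians were then -1.71, -0.97 and -2.83 in the 3 comparisons, and Krt10 was -0.64 in anti-SIRPa against control antibody. Only 2 of 12 same-numbered pairs of libraries had deviations correlated over 0.1, and 0 libraries matched their own number best in both other groups. In the labels the numbers only name animals. With 4 libraries per group that differ widely in skin genes, this check cannot show whether same-numbered libraries shared a batch.

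Low counts limit the inner root sheath, simple and mucosal keratins most: 3 counts correspond to 0.170 to 0.435 CPM, and zeros in the skin-poor libraries are no evidence of absence.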
